A study of Caenorhabditis elegans with 2 samples.

Results

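The splicing factor genes described here are the 40 protein-coding genes of Caenorhabditis elegans whose symbol starts with snr-, rsp-, prp-, lsm-, sftb- or uaf-, out of 19985 protein-coding genes in the Ensembl annotation of the WBcel235 genome (ce11). The rule that picks them uses the name alone and no measured value, though the group was proposed with earlier results of these data known. The data are chromatin immunoprecipitation sequencing (ChIP-seq), in which DNA bound by a protein is enriched with an antibody and located by its reads. The protein pulled down, through an antibody against GFP, was F13H6.1, which bcl-11 encodes and which was tagged with GFP-FLAG at the C-terminal end. The promoter of the transgene is not stated in the labels. Both libraries came from strain OP471, genotype unc-119(tm4063) III; wgIs471, so every worm carried the unc-119 mutation as well as the transgene. The animals were hermaphrodite late embryos, used whole, 5 hours after egg bleaching, with their age otherwise given as unknown. There were 2 biological replicates in 1 group, and no untagged strain, other stage or other condition was analysed here. A whole embryo mixes all tissues, so the cells in which a site was bound cannot be told apart.

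The spliceosome removes introns from pre-mRNA. It is built from small nuclear ribonucleoproteins (snRNPs), each an RNA with a ring of Sm or LSm proteins and its own further proteins, and it is helped to exons by SR proteins and to the 3′ splice site by U2AF. In C. elegans many genes lie close together on the same strand in operons, whose long transcripts are cut into single messages by trans-splicing with the same kind of machinery. Mammalian BCL11 proteins, after which bcl-11 is named, are zinc finger transcription factors.

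Each gene was scored by the summits, the points of highest signal, of the authors' regions that lay in its window, which began 1000 bp upstream and ended 500 bp downstream of a transcript start. The authors deposited a thresholded list of 1065 regions, made with a reproducibility threshold between replicates. They also deposited permissive lists of 21824 regions from the pooled reads, 19517 from replicate 1 and 21972 from replicate 2. The thresholded regions were the 1065 pooled regions of highest signal, so a place among them did not require a high rank in each replicate. Their signal ran from 1223 at the highest to 82.13 at the last one kept, with 82.12 at the next pooled region. The scale of the signal is not given either, so regions are compared by rank within a list, where rank 1 is the highest signal. Of the members, prp-8 was the closest above this limit, at rank 975 with a signal of 85.55, and rsp-3 the closest below it, at rank 1657 with 66.74.

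A thresholded summit lay in the windows of 7 of the 40 splicing factor genes (17.5%), against 3.94% of all protein-coding genes. These 7 genes were snr-1, snr-2, rsp-1, rsp-2, prp-8, prp-19 and lsm-3, and they shared 6 sites, because rsp-1 and rsp-2 lie head to head on either side of the same summit. A pooled summit, thresholded or not, lay in the windows of 24 members (60%), against 36.5% of all protein-coding genes. The other 16 members had none.

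The count of 7 genes rests on 6 summits, and the sequences around 5 of them are shown, without that of snr-2. The window of a permissive region shared by the head-to-head pair rsp-5 and snr-3 is set beside them as a lower-ranked example. Each runs 50 bases either way from the summit on the plus strand of WBcel235, read from the RefSeq assembly, and stops at an annotated exon. Capitals mark the 11 bases centred on the summit. The snr-1 sequence is chrIV:17087570-17087670, that of prp-19 is chrIII:5172624-5172719, that of rsp-1 and rsp-2 is chrII:11453197-11453297, that of lsm-3 is chrIV:13386197-13386297, that of prp-8 is chrIII:8164034-8164134 and that of rsp-5 and snr-3 is chrII:6490018-6490118.
snr-1: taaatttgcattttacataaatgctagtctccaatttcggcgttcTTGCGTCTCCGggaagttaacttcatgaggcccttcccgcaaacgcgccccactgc
prp-19: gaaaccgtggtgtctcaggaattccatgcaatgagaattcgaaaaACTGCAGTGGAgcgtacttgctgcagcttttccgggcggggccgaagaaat
rsp-1 and rsp-2: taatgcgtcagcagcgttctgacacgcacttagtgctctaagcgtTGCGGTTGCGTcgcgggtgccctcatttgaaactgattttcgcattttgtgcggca
lsm-3: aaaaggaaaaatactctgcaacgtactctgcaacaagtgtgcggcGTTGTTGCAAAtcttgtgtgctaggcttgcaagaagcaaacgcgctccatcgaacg
prp-8: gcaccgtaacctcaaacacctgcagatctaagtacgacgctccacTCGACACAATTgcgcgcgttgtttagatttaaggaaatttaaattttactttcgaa
rsp-5 and snr-3: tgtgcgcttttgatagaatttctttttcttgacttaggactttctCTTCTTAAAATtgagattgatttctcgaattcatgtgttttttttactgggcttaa

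G and C made up a median of 49.5% of the 101 bases around the 6 member summits, 50.5% around all thresholded summits and 42.6% around all pooled summits. In stretches of the same length just upstream of every protein-coding gene the median was 32.7%. The 6 full windows held 7 to 10 CG dinucleotides with a median of 7, which was also the median of all thresholded windows. The median was 4 in pooled windows and 3 in the upstream stretches. The prp-19 sequence shown above is cut at an exon to 96 bases and holds 6. In both measures the 6 sites were close to the thresholded list as a whole. The rsp-5 and snr-3 window, at rank 7288, had 30.7% G and C and 2 CG dinucleotides, close to the upstream stretches. It is a single example and was low for the group. Over the 22 windows around the highest pooled summits of members, the 6 included, the median was 43.6% G and C. That was close to the 42.6% of all pooled summits and above the 32.7% of the upstream stretches. Lower-ranked member windows were not summarised apart from the 6. TGACCA, a word bound by mammalian BCL11A, was searched on both strands and was in 0 of the 6 windows, in 3.76% of all thresholded windows, in 3.70% of pooled windows and in 3% of the upstream stretches. It was also in 0 of the same 22 windows, which says only that these letters were not in those bases. No word of 6 letters, reverse complements merged, lay in more than 3 of the 6 windows. AACGCG, on either strand, was in 3 of them, those of snr-1, lsm-3 and prp-8, and in 9.58% of thresholded windows, 3.40% of pooled windows and 2.25% of the upstream stretches. It was picked after the words had been counted, and 9 words in all reached 3 windows.

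Among the Sm proteins, which form the ring on the spliceosomal RNAs, snr-1 (SmD3, WBGene00004914) had the highest-ranked summit of any member. Its region, chrIV:17087518-17087745, had a signal of 221.7 and rank 81 in the pooled list, 124.7 and rank 59 in replicate 1, and 91.7 and rank 165 in replicate 2. The replicate summits lay 8 and 0 bp from the pooled one, so both libraries placed the same position high in their lists. The summit was 429 bp upstream of snr-1 and 182 bp upstream of snx-13, a sorting nexin gene on the other strand. The site of snr-2 (SmB, WBGene00004915) on chromosome I had a signal of 96.26 at rank 757. Its ranks were 585 in replicate 1, with a signal of 53.72, and 1480 in replicate 2, with 38.54, so it was among the 1065 highest in replicate 1 alone. That summit was 403 bp upstream of snr-2 and 63 bp upstream of the divergent gene W08E3.4.

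The other Sm genes were lower. The summit of snr-4 (SmD2) was at rank 2120, 1693 in replicate 1 and 3088 in replicate 2, and lay 339 bp upstream of its start. It was inside a noncoding gene, C52E4.14, and within 100 bp of a small nuclear RNA gene. Of the 24 members with a pooled summit, snr-4 was the only one whose highest lay so close to a tRNA, snoRNA or snRNA gene. Which of these genes the signal belongs to cannot be told apart. For snr-6 (SmE) the pooled summit was at rank 4006, 454 bp downstream of the start, in a stretch annotated as UTR of both snr-6 and pie-1. The highest summit in the window was at 3667 in replicate 1, upstream of the start, and at 5598 in replicate 2, 437 bp downstream. The highest regions overlapping the pooled one were at rank 12317 in replicate 1 and 3834 in replicate 2. The pooled summit of snr-3 (SmD1), shared with rsp-5, was at rank 7288 and at 5319 in replicate 2, with none in replicate 1. No list had a summit in the windows of snr-5 (SmF) or snr-7 (SmG). The 7 genes of 1 ring thus ran from rank 81 to no summit at all.

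Of the LSm genes, whose proteins form the related rings that bind U6 RNA in the nucleus or take part in mRNA decay in the cytoplasm, lsm-3 (WBGene00003077) alone had a thresholded summit. Its region, chrIV:13386019-13386474, had a signal of 95.31 at rank 775. It was at rank 636 in replicate 1, with a signal of 51.73, and at 1355 in replicate 2, with 39.99. The summit lay 956 bp upstream of lsm-3, near the edge of the window, and much closer to Y62E10A.23 at 77 bp, the Mediator subunit gene mdt-9 at 133 bp and Y62E10A.20 at 156 bp. lsm-6 was at rank 3004, with 4388 in replicate 1 and 1284 in replicate 2. The replicate 1 region overlapped the pooled one, but its summit lay 331 bp from the pooled summit. The summit of lsm-1, which belongs to the cytoplasmic decay ring, was near the end of the pooled list at rank 21735 and had no counterpart in either replicate. The windows of lsm-4, lsm-5, lsm-7 and lsm-8, the last being the subunit of the nuclear ring, held no summit of any list.

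SR proteins bind exons through RNA recognition motifs and recruit the splicing machinery. The pair rsp-1 (WBGene00004698) and rsp-2 (WBGene00004699) shared the region chrII:11453019-11453474, with a signal of 103.3 at rank 639. In replicate 1 it was at rank 1142 with a signal of 40.29 and in replicate 2 at rank 409 with 66.31, so it was among the 1065 highest in replicate 2 alone. The starts of the 2 genes are divergent, and the summit was 115 bp upstream of rsp-1 and 292 bp upstream of rsp-2. rsp-3, the homologue of human SRSF1, came next at rank 1657, with 3206 in replicate 1 and 2221 in replicate 2. Its summit lay 423 bp upstream of rsp-3 but 27 bp downstream of the start of spin-4, in a coding exon of that gene. rsp-8, the homologue of the splicing regulator TRA2, was at rank 2701 with a summit 557 bp upstream, and at 4127 in replicate 1 and 2867 in replicate 2. rsp-5 was at rank 7288, with 5319 in replicate 2 and no summit in replicate 1. rsp-6, the SRp20 homologue, was at 9196 in the pooled list, 148 bp upstream of the start, and at 2820 in replicate 2. No region of replicate 1 overlapped it, and the 11274 of replicate 1 was another summit, 485 bp downstream of the start. No summit lay in the windows of rsp-4, the SC35 homologue, or rsp-7.

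The genes that recognise the 3′ splice site and branch point had no thresholded summit. uaf-1 and uaf-2, the large and small subunits of U2AF, had no pooled summit, and replicate 2 alone had a summit in their windows, at ranks 6112 and 19926. In the SF3B complex of the U2 snRNP, sftb-1 (SF3B1) was at rank 2997, with 4922 in replicate 1 and 2638 in replicate 2, and its summit was in a UTR of the divergent gene R10E4.1. sftb-2 (SF3B2) was at 7086, with 3111 in replicate 1. No region of replicate 2 overlapped it, and the 7009 of replicate 2 was another summit, downstream of the start. sftb-6 (SF3B6) had a summit in replicate 1 alone, at 6108. In the SF3A complex, prp-9 (SF3A3) was at rank 8137, with 9152 in replicate 1 and 15030 in replicate 2. prp-21 (SF3A1) was at 19497, with 17474 in replicate 1, and its summit was in its own coding exon. No region of replicate 2 overlapped it, and the 10573 of replicate 2 was another summit, upstream of the start. Of the genes for proteins of the U1 snRNP, prp-40 was at rank 2584, with 6136 in replicate 1 and 2098 in replicate 2, and prp-39 had no summit. None of these 9 genes came within the ranks of the thresholded list.

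prp-8 (WBGene00004187), the core protein of the U5 snRNP at the catalytic centre, had a thresholded region at chrIII:8163856-8164311 with a signal of 85.55 at rank 975. Replicate 1 had it at rank 1422 with a signal of 36.72, and replicate 2 at 831 with 49.31. Its summit was 289 bp upstream of prp-8, the nearest start, and 701 bp upstream of the divergent gene bath-42. The replicate summits were 11 and 49 bp from the pooled one, the widest spread of the 6 sites. The other prp- genes of the U4/U6.U5 tri-snRNP were lower or without a summit. prp-31 was at rank 5280, with 10090 in replicate 1 and 5823 in replicate 2, and with its summit 106 bp downstream of its start in its own coding exon, while prp-3 had a summit in replicate 2 alone, at 7578, and prp-4, prp-6 and prp-38 had none in their windows.

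prp-19 (WBGene00020423) encodes the ubiquitin ligase of the complex that activates the spliceosome. Its region, chrIII:5172581-5172793, was the second of the members, with a signal of 211.9 at rank 99. It had rank 120 and a signal of 101.5 in replicate 1, and rank 96 and 107.7 in replicate 2, the closest pair of ranks among the 6 sites. The summit was 46 bp upstream of K10D2.5, 629 bp upstream of prp-19 and 765 bp upstream of emb-1, which encodes a subunit of the anaphase-promoting complex. When the window was cut to 500 bp each way, the highest summit left for prp-19 was at rank 9152. prp-17 and prp-18 act in the second step of splicing. prp-17 was at rank 11972 in the pooled list and 12459 in replicate 1, with no summit in replicate 2. prp-18 was at rank 11689 in the pooled list and at 2062 in replicate 1, where the summit lay 4 bp from the pooled one. No region of replicate 2 overlapped it, and the 9339 of replicate 2 was another summit, further upstream in the window.

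**Figure D1:**
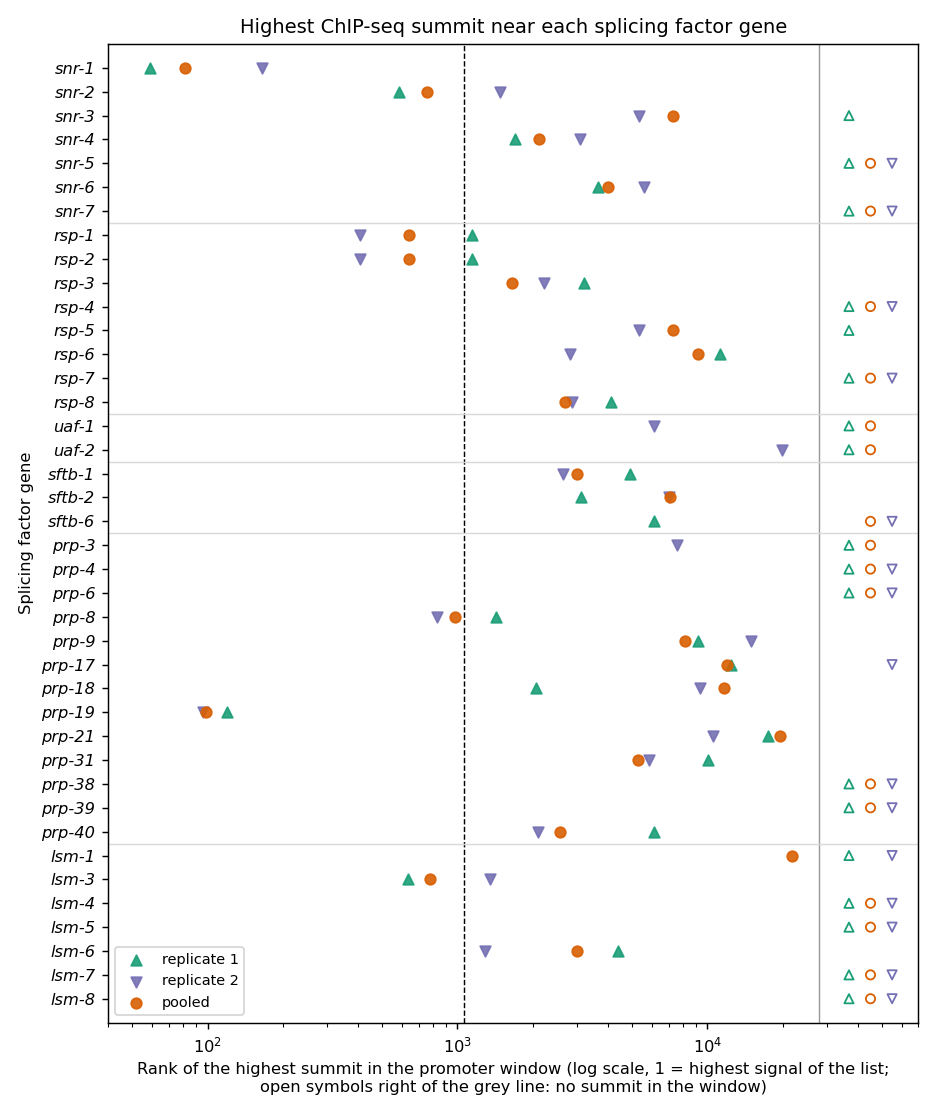
Rank of the highest summit in the window of each of the 40 genes (log axis, 1 = highest signal), in the pooled list (circles) and in replicates 1 and 2 (triangles), grouped by symbol; the dashed line is rank 1065, the end of the thresholded list, and open symbols mark genes with no summit. snr-1 and prp-19 lie left of the line in both replicates, and 12 genes have no summit in any list.

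The plot of ranks shows how far the replicates differed gene by gene. Of the 7 genes with a thresholded summit, snr-1 and prp-19 were among the 1065 highest regions of each replicate taken alone, and the other 5 genes were among them in 1 replicate. Replicate 1 alone called 4 members, lsm-3, prp-19, snr-1 and snr-2, against 3.83% of all protein-coding genes. Replicate 2 alone called 5, prp-8, prp-19, rsp-1, rsp-2 and snr-1, against 3.81%. With a summit required among the highest of both, 2 members (5.00%) were called against 2.74% of all protein-coding genes, and of the genes with a thresholded summit 28.6% of members passed, against 69.2% of all 788. In the permissive lists 22 members (55.0%) had a summit in replicate 1, against 33.9%, and 25 (62.5%) in replicate 2, against 36.3%. For 16 of the 24 members with a pooled summit, the region of the highest one overlapped a region of both replicates. The same held for 53.9% of all 7293 protein-coding genes with a pooled summit. Labels name the replicates as biological, with no further word on separate cultures.

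The 24 members with a pooled summit had a median rank of 3000, against 8033 over the 7293 protein-coding genes with a pooled summit. Within the 5000 highest pooled regions, 14 of the 40 genes (35.0%) had a summit, against 13.0% of all protein-coding genes. The share of members was therefore above the background in the permissive lists as well as in the thresholded list. With the 532 thresholded regions of highest signal, 2 members (5.00%) were called, snr-1 and prp-19, against 2.03%. All 6 sites but those of snr-1 and prp-19 were below the list's median signal of 112.3. The 40 genes were spread over the autosomes, with 6 on chromosome I, 11 on II, 10 on III, 7 on IV and 6 on V, and none was on X. A thresholded summit was called for 1 member on I, 2 on II, 2 on III, 2 on IV and 0 on V, against 5.46%, 3.77%, 5.98%, 3.29% and 2.46% of the protein-coding genes of these chromosomes. A pooled summit was called for 4, 7, 7, 4 and 2 members in the same order, against 46.1%, 36.3%, 46.2%, 33.8% and 26.3%.

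**Figure D2:**
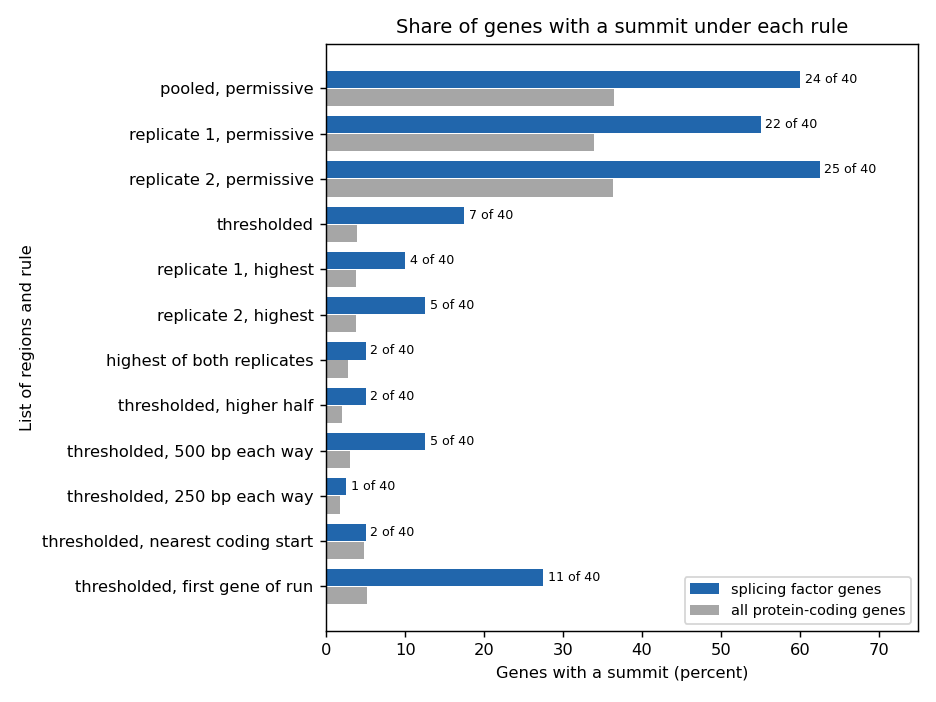
Percent of the 40 splicing factor genes (blue) and of all 19985 protein-coding genes (grey) with a summit under each list and rule; the number of members called is printed at each blue bar. The blue bar is longer than the grey one throughout, from 60% against 36.5% in the pooled list to 5.00% against 4.77% when each thresholded summit goes to its nearest start.

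For each of the 7 genes but rsp-1, the thresholded summit lay more than 250 bp from the member's start. The windows of snr-1, snr-2, rsp-1, rsp-2 and prp-8 still held a thresholded summit when cut to 500 bp each way, which is 5 members against 3.08% of all protein-coding genes. Cut to 250 bp, only that of rsp-1 did, against 1.80%. When each thresholded summit was given to its nearest protein-coding start alone, prp-8 and rsp-1 were the only members called (5.00%), against 4.77% of all protein-coding genes, so by that rule the share of members was near the background. The member's start was nearest to the summit for 2 of the 7 genes, against 74.4% of the 788 protein-coding genes with a thresholded summit. Counting any base of a region rather than its summit, taking the outermost start of each gene, or taking protein-coding transcripts only each left 7 members, against 4.35%, 3.59% and 3.94%.

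In the pooled list the cut to 500 bp left 21 members, against 29.3%, the cut to 250 bp left 11 (27.5%), against 18.4%, and any base of a region gave 27, against 41.6%. The highest pooled summits were 314 bp from the start at the median, against 290 bp over all protein-coding genes with one. They were upstream of the start in 21 of 24 members (87.5%), against 75.5%. For the 24 members, the highest summit was intergenic in 18, in a coding exon in 3, in a UTR in 2, in a noncoding gene in 1 and in an intron in 0. These counts are by gene, over 22 distinct regions, because rsp-1 and rsp-2, and rsp-5 and snr-3, share a summit.

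**Figure D3:**
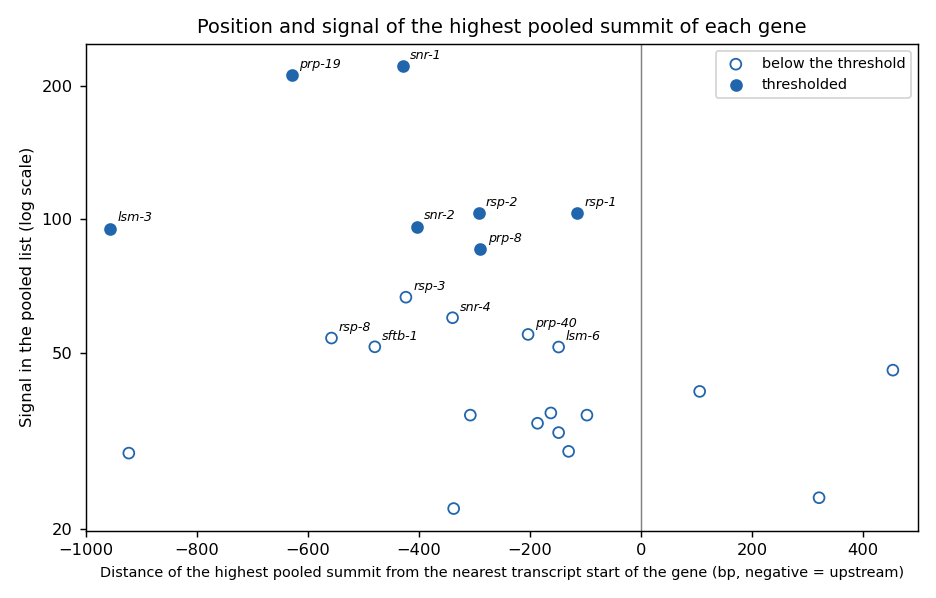
Signal in the pooled list (log axis) of the highest pooled summit of each of the 24 members that have one, against its distance in bp from the nearest transcript start of the gene (negative is upstream); filled points are thresholded. The 7 thresholded points lie between 956 and 115 bp upstream, and 3 points, all below the threshold, lie downstream.

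All 6 member sites lay between divergent protein-coding genes, which point away from the summit on both sides. Of the 623 thresholded regions with at least 1 protein-coding gene in reach, 48.6% did so, and of the 473 of these outside protein-coding genes, 64.1%. Each of the 6 sites had at least 2 protein-coding genes with a window over it, as did 31.9% of the 623. Divergent neighbours were common among the members as a whole, since 28 of 40 (70.0%) had the nearest upstream protein-coding gene on the other strand, against 46.2% of all protein-coding genes. Genes so placed had a thresholded summit more often in general, at 5.76% of protein-coding genes against 2.31% of those with the upstream neighbour on the same strand. Among members the counts were 6 of 28 (21.4%) and 1 of 12 (8.33%). In both arrangements the members' share was above that of all protein-coding genes, by a single gene, lsm-3, in the latter. The part of the arrangement in the count of 7 was not tested. For pooled summits the members' shares were 67.9% with a divergent neighbour, against 40.7%, and 41.7% with a neighbour on the same strand, against 32.8%.

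**Figure D4:**
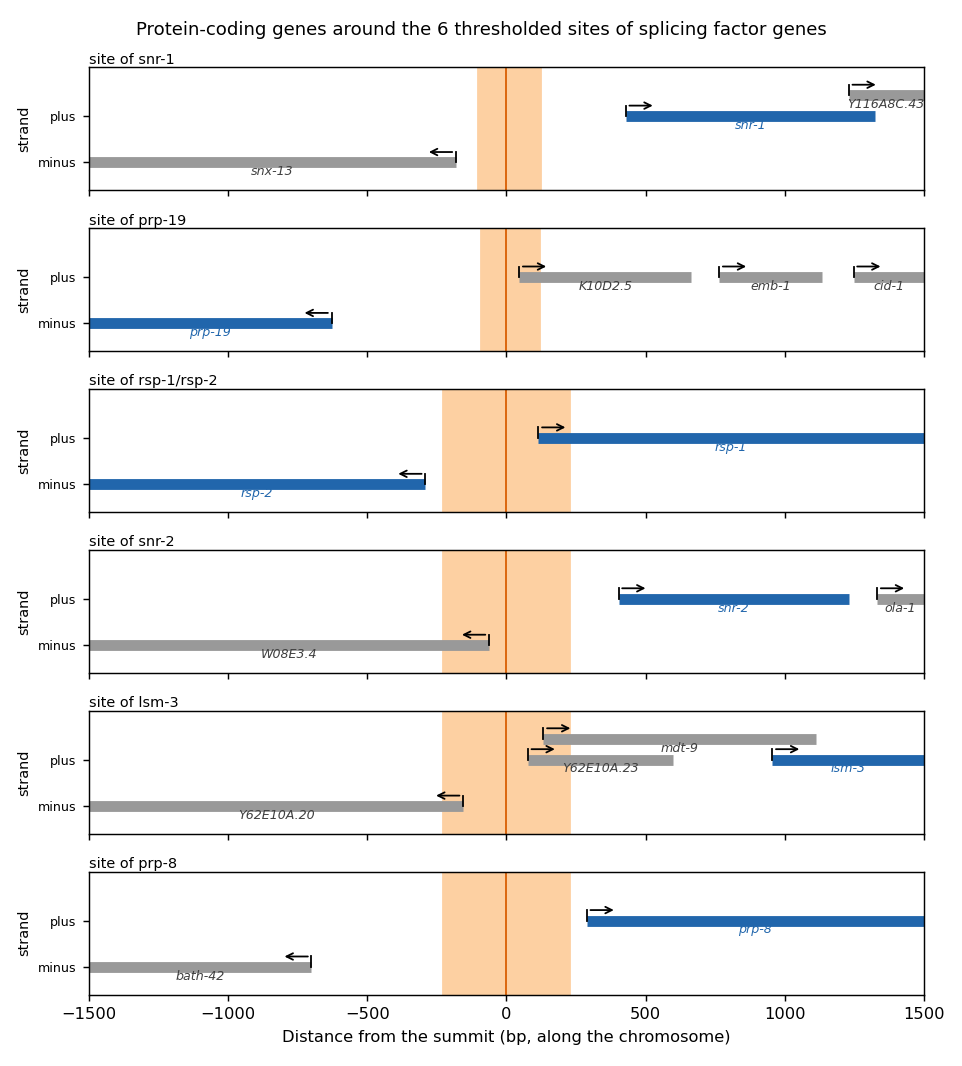
Protein-coding genes within 1500 bp of the 6 thresholded summits, by strand, with distance from the summit in bp along the chromosome; splicing factor genes are blue, other genes grey, arrows mark starts and the shaded band is the deposited region. At every site a gene on the minus strand starts to the left of the summit and a gene on the plus strand to the right.

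Which gene of a pair a summit belongs to is not given by these data. For rsp-1 and rsp-2 both neighbours are SR protein genes, and the same holds at a lower level for rsp-5 and snr-3, an SR and an Sm gene. The region of that second pair was absent from replicate 1, while in replicate 2 it was at rank 5319 with a signal of 23.5. The other 5 thresholded sites each had a gene outside the group next to the summit. At 4 of them (snr-1, prp-19, snr-2 and lsm-3) the start of such a gene was closer than the member's. At the lsm-3 site both genes of the divergent pair were outside the group, and lsm-3 started 956 bp away, behind other genes on its strand.

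Of the 40 members, 9 (22.5%) were not the leading gene of a run of genes on the same strand with gaps of at most 500 bp, against 20.9% of all protein-coding genes. For such genes a shared promoter could lie at the start of the run, so the window was also placed there, a rule chosen after the data had been seen. It called 11 members (27.5%), against 5.16% of all protein-coding genes, by adding lsm-8, prp-3, prp-38 and rsp-4 to the 7. The thresholded summit for prp-38 was at rank 253 with a signal of 151.5, 194 bp upstream of plrg-1, whose product works with PRP19, and the 2 starts are 1878 bp apart. That region was at rank 341 in replicate 1 and 193 in replicate 2. For prp-3 it was at rank 545, 276 bp upstream of smrd-1, and for lsm-8 at rank 594, 331 bp upstream of sqd-1. For rsp-4 it was at rank 739, 489 bp upstream of fbxl-3, the leading gene of a run of 6, and 10066 bp separate that start from the start of rsp-4. These 4 summits were outside the members' own windows, and whether the runs are transcribed as operons was not tested.

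Of the 12 members with no summit in any list, 3 were among these 4 genes, and the other 9 were lsm-4, lsm-5, lsm-7, prp-4, prp-6, prp-39, rsp-7, snr-5 and snr-7. The 16 members without a pooled summit in the window had the nearest pooled summit 580 to 2488 bp from a start, with a median of 1373 bp. For 5 of them, lsm-8, prp-3, prp-6, rsp-7 and uaf-1, a pooled summit lay inside the gene beyond the window, the highest at prp-6 with rank 4358 and rsp-7 with rank 4822.

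A further 60 splicing genes outside the 6 name families, listed by textbook role, were scored in the same way. A thresholded summit was in the windows of 6 (10.0%) and a pooled one in those of 45 (75%), against 3.94% and 36.5% of all protein-coding genes. The highest was at plrg-1, at rank 253 as above. rsr-1, the homologue of the splicing coactivator SRm160, was at rank 473, with 1198 in replicate 1 and 285 in replicate 2, and its summit lay 430 bp upstream. asd-1, an RBFOX-type regulator of alternative splicing, was at rank 638, and asd-2, a STAR-type RNA-binding protein gene, was at rank 728 with its summit in an intron 56 bp upstream of a start. mog-5, a DEAH helicase gene, was at rank 739, at the region already named for the run of rsp-4, and lies head to head with fbxl-3. In these genes the highest pooled summits were closer to a start, at a median of 194 bp, than in the 40 members at 314 bp.

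Other groups of ubiquitous machinery showed that the members' share was not the highest. Among cytosolic ribosomal protein genes 20 of 78 (25.6%) had a thresholded summit and 83.3% a pooled one, and among proteasome genes 3 of 33 (9.09%) and 66.7%. The splicing factor genes, at 17.5% and 60%, lay between these groups for thresholded summits and below both for pooled summits. No test was made between the groups, and the counts are given as a description.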

How the data were processed

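The data are ChIP-seq region lists of 2 biological replicates in 1 group. The authors deposited, for each replicate, for the pooled reads and after a reproducibility threshold, regions with a summit and a signal value, per the submitters' file lists. Not given in the sources used here are the aligner, the peak caller, their versions, the threshold and the scale of the signal. The lists do not tell the depth of each library. The ce10 lists, signal tracks and control libraries were not used here. The ce11 lists were ranked by signal and joined to Ensembl release 115 transcript starts with Python 3.11.15, pandas 2.3.3 and numpy 2.4.6, after the join had been tested on simulated summits. Counts of members were set beside the same count over all 19985 protein-coding genes, with no p-value. Members, gene lists and rules were chosen with earlier results of these data known. The genes named are every member with a thresholded summit, the 10 next by pooled signal (11 with a tie), and, of the further splicing genes, those with a thresholded summit, of which 1 is not reported here; other members are placed within their group. Alternatives were other windows, assignment rules, the replicates taken singly, and, added after seeing the data, both replicates together and runs of genes. Positions are 1-based.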

Additional observations from a re-analysis of the deposited data

How the results depend on the processing

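The 7 members with a thresholded summit (17.5%, against 3.94% of all protein-coding genes) became 2 with the higher-signal 532 regions (5.00%, against 2.03%). They became 1 with windows of 250 bp each way (2.50%, against 1.80%). With the nearest protein-coding start they became 2 (5.00%, against 4.77%), near the background. The highest regions of both replicates gave 2 (5.00%, against 2.74%). Windows at the leading gene of a run gave 11 (27.5%, against 5.16%). The 1065 highest regions of replicate 1 alone gave 4 (10.0%, against 3.83%), and those of replicate 2 alone 5 (12.5%, against 3.81%). The 24 members with a pooled summit (60%, against 36.5%) became 11 with windows of 250 bp (27.5%, against 18.4%). The median pooled rank of 3000 (8033 over all protein-coding genes with a pooled summit) became 4006 with windows of 500 bp (8218). In the permissive lists of single replicates the median was 3436 in replicate 1 (7280) and 2867 in replicate 2 (8273). The 6 of the 60 further splicing genes (10.0%, against 3.94% of all protein-coding genes) became 2 with the higher-signal regions (3.33%, against 2.03%). With windows of 250 bp they became 3 (5.00%, against 1.80%). For these genes the 1065 highest regions of replicate 1 alone gave 8 (13.3%, against 3.83%), and those of replicate 2 alone 7 (11.7%, against 3.81%). No paired analysis was possible because there is 1 group. With 2 replicates, the spread between them is the only error available for these lists. Enrichment in the absence of the tagged protein was not analysed here.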
